A study of Oryctolagus cuniculus with 12 samples.

Results

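The genes described here build the contacts of an epithelium with itself and with the tissue under it: claudins, occludin and ZO scaffolds of tight junctions, E-cadherin (CDH1) and EPCAM, desmosomal cadherins and plaque proteins, connexins of gap junctions, the integrins of hemidesmosomes and the laminin chains of basement membranes. They were taken by name from the gene table (symbols starting with CLDN, DSG, DSC, PKP, TJP, GJA, GJB, GJC, LAMA, LAMB or LAMC and a number, together with DSP, JUP, OCLN, CDH1, EPCAM, ITGA6, ITGB4, DST and PLEC), and kept when at least 10 counts were found in 3 libraries. Of 20566 genes in the table, 68 rows matched by name and 54 passed. The 14 rows that did not pass included CLDN14, CLDN16, CLDN17, CLDN18, CLDN19, CLDN20, CLDN22, CLDN25, CLDN34, DSG4, GJA10, GJB1 and GJB7. DST and PLEC had no row under these names, and their products are given with other unnamed rows further on. All 54 genes were also among the 14835 genes tested.

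The libraries came from the conjunctiva of female Japanese white rabbits. The right eye underwent trabeculectomy, a filtering operation for glaucoma that lets aqueous humor pass through a scleral flap and collect under the conjunctiva as a bleb, with mitomycin C, an agent that blocks cell division. According to the methods, iridectomy, betamethasone injected into the conjunctiva and an antibiotic ointment were part of the procedure. The conjunctiva with its bleb was taken 3 hours (TL3h), 3 days (TL3d) or 14 days (TL14d) after the operation, and the conjunctiva of left eyes, which were not operated on, served as control. Each of the 4 groups held 3 libraries of bulk RNA. The labels give no age, do not say which control eye belongs to which operated animal or time, and do not say that the 3 libraries of a group came from separate animals, so the p-values measure the spread between these libraries. Operation, drugs and wound cannot be told apart in this design, since every operated eye received them all.

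Claudins span the membrane at the tight junction, where some seal the space between cells and others form pores, and the ZO proteins tie them to actin. Desmosomes hold cells together through desmogleins and desmocollins, which plakophilins, plakoglobin (JUP) and desmoplakin (DSP) link to keratins, and the desmogleins are known to be layered in stratified epithelia, with DSG3 in the lower layers and DSG1 in the upper ones. Basal cells rest on the basement membrane through the integrin formed by ITGA6 and ITGB4, which binds laminin-332, a trimer that holds the LAMA3 and LAMB3 chains and that epithelial cells lay down during wound closure. Gap junctions are channels made of connexins through which neighbouring cells exchange ions and small molecules.

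Library totals ranged from 27111276 to 38591374 counts, and 3 counts in a library, the upper limit that a count of 0 allows, equal 0.0712 to 0.1245 CPM (counts scaled by the TMM-adjusted library size). Such limits cover counting error only. The TMM scaling factors were 0.768 to 0.783 in TL3h and 1.03 to 1.13 in all other libraries. With library size alone as the scale, the median over all genes at 3 hours was -0.47 instead of 0.02, so the fold changes below are relative to the TMM scale. Epithelial keratins were present in every library (10 measured genes, summed level 5231 to 22430 CPM). Library TL14d replicate 1 correlated better with the controls (mean r = 0.969 across genes) than with its own group (mean r = 0.914), and control replicate 3 and TL3d replicate 3 had the highest summed fibroblast markers of their groups (76980 and 64980 CPM). Results are also given without these 3 libraries where this changes a count, a choice made after seeing the data. In TL3h and TL14d the library highest in fibroblast markers was kept (126600 and 57330 CPM).

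In the controls, the level per transcript length (FPKM, fragments scaled by transcript length and library size) was highest for CLDN4, at 235.7 ± 46.0 (SD, n = 3). It was followed by CLDN7 (212.5 ± 5.35), DSP (155.1 ± 52.4), DSC2 (139.9 ± 55.9), DSG1 (132.8 ± 66.2), CDH1 (132.4 ± 32.9) and JUP (117.9 ± 36.4). CLDN4 and CLDN7 differed by less than the SD of CLDN4, and DSP was lower than CLDN7 by more than either SD. From DSP to JUP each gene lay within 1 SD of the next.

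At 3 hours, 13 of the 54 genes rose and 6 fell (q at most 0.05, where q is the p-value of the edgeR quasi-likelihood test adjusted over all genes tested). Among all genes tested, 23.2% rose and 22.2% fell, so the share of risers among the 54 (24.1%) was close to the background and the share of fallers (11.1%) was lower. The median log2 fold change of the 54 was 0.53, beside 0.02 over all genes. The genes that rose included CLDN4, CLDN6, CLDN7, CLDN9, CLDN12, EPCAM, DSG3, GJA1, GJA5 and ITGA6, and those that fell were CLDN8, CLDN15, OCLN, DSG1, DSC1 and LAMA5. In 21 genes all TL3h libraries lay above all controls (28.9% of all genes) and in 7 all lay below (28.3%). Without TMM factors, on library size alone, 8 of the 54 rose and 12 fell at 3 hours, beside 12.7% and 38.2% of all genes. The calls of 11 genes held under each of the alternative fits run for that gene (up to 23): CLDN4, CLDN6, CLDN8, CLDN9, CLDN15, OCLN, EPCAM, DSG1, GJA1, ITGA6 and LAMA5. These fits did not require a 2-fold change, of which EPCAM fell just short (log2 0.997). Requiring it as well left 10 of the 54 higher and 6 lower, beside 14.2% and 14.5% of all genes. Without the 3 libraries named above, 31 of the 54 passed at 3 hours (57.4%, beside 52.6% of all genes), 20 higher and 11 lower.

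At 3 days, 3 genes rose (ITGA6, LAMA3 and DSG3) and 4 fell (CLDN3, CLDN8, CLDN11 and CLDN12), beside 10.6% and 7% of all genes tested. Of the 54, 8 had all TL3d libraries above all controls (23.8% of all genes) and 9 had all below (21.7%). The median log2 fold change was 0.20, beside -0.0018 over all genes. None of these 7 calls held when each library was left out in turn, and without the 3 libraries named above 13 of the 54 passed (24.1%, beside 25.9% of all genes). At 14 days no gene passed by edgeR (0% of all genes higher and 0% lower), with 6 of the 54 at an unadjusted p under 0.05 (11.1%, beside 10.4% of all genes). DESeq2 called 1 of the 54, beside 2.47% of all genes, and limma-trend 0. In 2 genes all TL14d libraries were above all controls (LAMB3 among them, 6.03% of all genes) and in 1 all were below (CLDN12, 5.12%). With the 3 time points tested together, 20 of the 54 differed from control (52.4% of all genes).

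**Figure D1:**
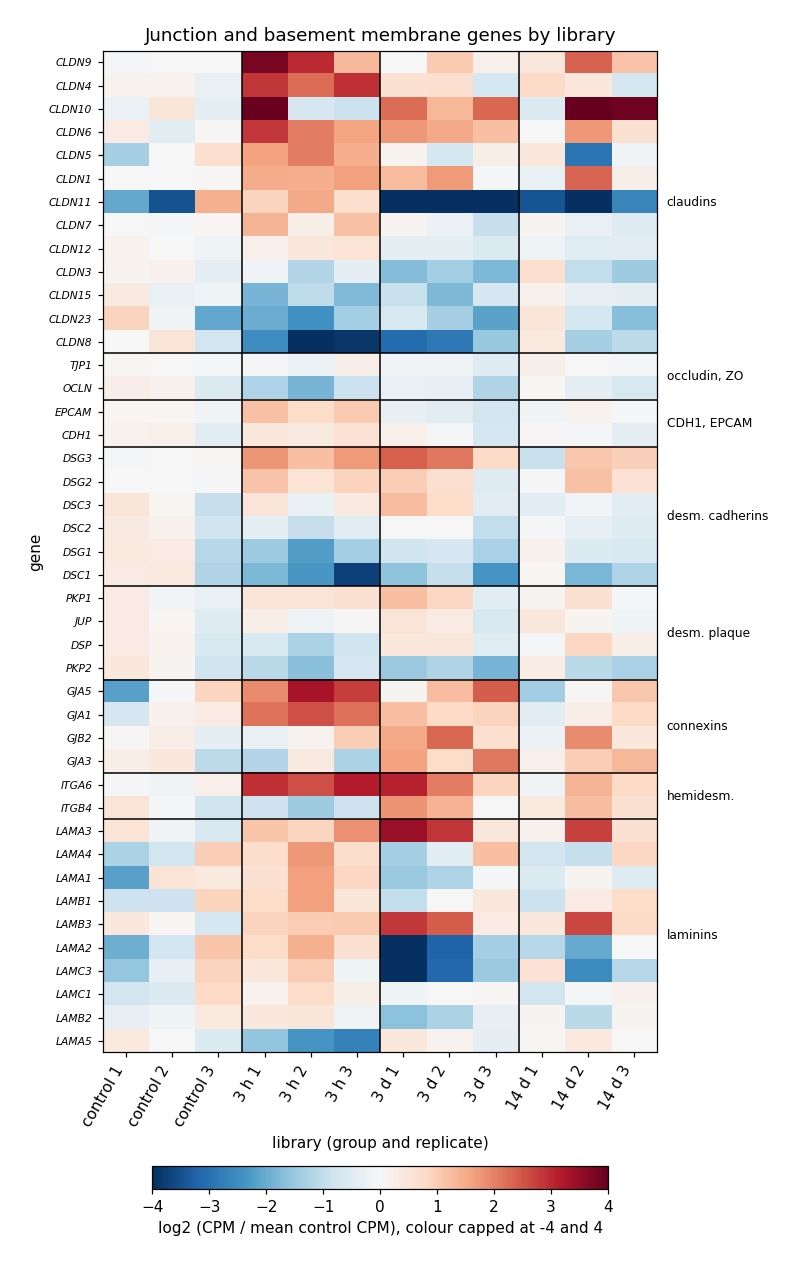
Level of 43 of the genes (rows, by role and then by the change at 3 hours) in each of the 12 libraries (columns), as log2 of CPM over the mean of the 3 controls, with values under 3 counts set to 3 counts. CLDN4, GJA1 and ITGA6 are red in all TL3h columns, CLDN8 and LAMA5 are blue there, and TL14d replicate 2 is red for LAMA3 and LAMB3 while TL14d replicate 1 is pale for both.

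Among the 14 claudins, 5 rose and 2 fell at 3 hours, beside 23.2% and 22.2% of all genes. None rose and 4 fell at 3 days, beside 10.6% and 7%, and none passed at 14 days. CLDN4, a sealing claudin of many epithelia, changed the most among those of high level. It measured 379.9, 380.0 and 282.0 CPM in the controls, 2546, 1651 and 2609 in TL3h, 529.3, 550.9 and 212.6 in TL3d, and 595.7, 463.0 and 211.9 in TL14d. Every TL3h library was thus far above every other library, and the later groups overlapped the controls. The log2 change was 2.71 ± 0.45 (SE) at 3 hours (q = 0.00095) and 0.31 ± 0.42 at 3 days (q = 0.63), and the fall from 3 hours to 3 days was itself past the threshold (log2 -2.40, q = 0.0023). In a bulk sample, fewer cells of a type and less RNA per cell cannot be told apart.

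CLDN7, a claudin that binds EPCAM, measured 265.6, 251.0 and 276.9 CPM in the controls and 682.3, 309.6 and 600.4 in TL3h (log2 1.005 ± 0.32, q = 0.028). Its TL3h libraries did not overlap the controls, but replicate 2 was close to them, and the call was lost when any control or TL3h replicate 1 or 3 was left out (q = 0.064 to 0.12), and on library size alone (log2 0.51, q = 0.23). EPCAM itself, a surface protein of many epithelia, measured 162.4, 164.5 and 139.6 CPM in the controls, 353.0, 256.1 and 322.2 in TL3h, 124.3, 116.2 and 92.7 in TL3d, and 140.4, 170.4 and 148.7 in TL14d. All TL3h libraries were above the controls (log2 0.997 ± 0.16, q = 0.00088), and all TL3d libraries were below them without passing the test (log2 -0.49 ± 0.16, q = 0.064). CDH1, which carries the adherens junction, measured 476.5 to 729.0 CPM in the controls and 817.4 to 942.0 in TL3h, and did not pass at any time (log2 0.45 ± 0.25 at 3 hours, q = 0.16).

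CLDN8, known as a barrier claudin of the distal nephron and colon, fell. It measured 24.2, 34.4 and 14.2 CPM in the controls, 4.34, 1.37 and 1.65 in TL3h, 2.85, 3.36 and 8.56 in TL3d, and 31.6, 9.62 and 11.8 in TL14d. No library of TL3h or TL3d reached a control library. The log2 change was -3.30 ± 0.69 at 3 hours (q = 0.0032) and -2.30 ± 0.65 at 3 days (q = 0.039), of which the second was lost without control replicate 1 or 2, TL3h replicate 3 or TL3d replicate 1 or 2 (q = 0.051 to 0.13). CLDN3, a close relative of CLDN4, did not pass at 3 hours (log2 -0.51 ± 0.48, q = 0.42) and fell at 3 days, from 98.1, 103.6 and 71.8 CPM in the controls to 27.3, 35.8 and 26.3 (log2 -1.61 ± 0.49, q = 0.047). That call was lost without any single control, TL3h or TL3d library (q = 0.050 to 0.14). CLDN15, a pore-forming claudin of the gut, was low throughout, at 3.61 to 5.74 CPM in the controls and 1.23 to 2.20 in TL3h (log2 -1.49 ± 0.37, q = 0.0088).

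CLDN12 had small changes of opposite sign. It measured 44.5, 41.0 and 36.3 CPM in the controls, 47.1, 55.2 and 59.0 in TL3h, 31.6, 31.1 and 27.4 in TL3d, and 35.4, 29.0 and 29.9 in TL14d. On the TMM scale it rose at 3 hours (log2 0.41 ± 0.13, q = 0.032), but on library size alone the value was -0.10 (q = 0.62), and the call was also lost without control replicate 2 or 3 or TL3h replicate 2 or 3 (q = 0.080 to 0.17) and under 4 other settings (q = 0.053 to 0.11). At 3 days it fell (log2 -0.44 ± 0.13, q = 0.0499), a call lost in 10 of the 12 fits that left out 1 library, all except those without control replicate 3 or TL14d replicate 1 (q = 0.0502 to 0.16). CLDN11, which forms the tight junctions of myelin and of the testis, measured 2.25, 0.825 and 24.6 CPM in the controls, with replicate 3 far above the others. It was 17.0, 26.6 and 14.8 in TL3h and 0.425, 0.246 and 0.455 in TL3d, so that the TL3d libraries lay below every library of both other groups (log2 -4.60 ± 1.23 against control, q = 0.032). This last call was lost without control replicate 1 or 3 or any TL3d library (q = 0.054 to 0.11) and without the 3 libraries named above (q = 0.12).

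Low claudins also moved at 3 hours. CLDN6 measured 0.214, 0.1251 and 0.176 CPM in the controls and 1.21, 0.705 and 0.512 in TL3h (log2 2.22 ± 0.54, q = 0.0074), which rests on 5 to 9 counts a library in the controls. CLDN9 had no count in any control and 26.5, 14 and 5 estimated counts in TL3h, at least 8.05-fold higher when the controls are set to 3 counts per library (q = 0.0091). It reached 10 counts in only 3 libraries, TL3h replicates 1 and 2 and TL14d replicate 2. CLDN9 thus entered the gene set largely through the group in which it was called higher. It is included in the counts of genes that rose and of calls that held. Other claudins had no call at 3 hours. CLDN1, the main barrier claudin of skin, was 23.4 to 24.5 CPM in the controls and 65.3 to 74.5 in TL3h, above all controls (log2 1.53 ± 0.62, q = 0.069). CLDN5, the endothelial claudin, was 3.66 to 14.5 CPM in the controls and 24.8 to 38.1 in TL3h, again without overlap (log2 1.72 ± 0.71, q = 0.072). CLDN23 (log2 -1.85 ± 0.75, q = 0.067) and CLDN10 (log2 2.41 ± 1.39, q = 0.19) overlapped the controls.

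Of the other tight junction proteins, OCLN fell at 3 hours. OCLN, which encodes occludin, measured 102.8, 95.8 and 57.4 CPM in the controls, 36.6, 23.3 and 47.5 in TL3h, 69.3, 67.6 and 37.4 in TL3d, and 88.4, 65.0 and 54.9 in TL14d. The groups were separate at 3 hours only (log2 -1.25 ± 0.34, q = 0.013). TJP1, which encodes ZO-1, had a log2 change of 0.0022 ± 0.16 at 3 hours (q = 0.99) on the TMM scale and of -0.50 (q = 0.036) on library size alone.

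At 3 hours, 1 of 6 desmosomal cadherins rose and 2 fell, beside 23.2% and 22.2% of all genes. DSG1 measured 1379, 1318 and 475.0 CPM in the controls, 389.4, 224.0 and 409.0 in TL3h, 614.7, 656.5 and 429.0 in TL3d, and 1198, 725.4 and 692.0 in TL14d. TL3h lay below all controls (log2 -1.63 ± 0.42, q = 0.0095), although control replicate 3 was near to it, and TL3d overlapped (log2 -0.90 ± 0.41, q = 0.14). DSG3 went the other way, from 93.9, 96.3 and 98.3 CPM in the controls to 329.3, 220.3 and 311.7 in TL3h, 499.6, 417.7 and 162.6 in TL3d, and 51.5, 204.5 and 186.9 in TL14d. Every TL3h and TL3d library was above every control (log2 1.58 ± 0.50, q = 0.027, and 1.90 ± 0.51, q = 0.032). The 3-hour call was lost on library size alone (q = 0.097) and without any 1 control or TL3h replicate 1 or 3 (q = 0.066 to 0.076), and the 3-day call without any 1 control or TL3d replicate 1 or 2 (q = 0.067 to 0.11).

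DSC1, the desmocollin of the upper layers, fell from 0.627 to 1.91 CPM in the controls to 0.0732 to 0.423 in TL3h (log2 -2.46 ± 0.75, q = 0.022), with the call lost without control replicate 1 or 2 or TL3h replicate 2 or 3 (q = 0.056 to 0.066). The other cadherins did not pass. DSG2 was 174.0 to 181.1 CPM in the controls and 259.4 to 395.5 in TL3h, without overlap (log2 0.88 ± 0.38, q = 0.083), and DSC2 (log2 -0.56 ± 0.34, q = 0.21) and DSC3 (log2 0.24 ± 0.43, q = 0.69) overlapped. None of the 5 plaque proteins passed at 3 hours or 3 days, beside 45.4% and 17.6% of all genes. DSP measured 1912, 1693 and 996.3 CPM in the controls, 1002, 636.2 and 878.5 in TL3h, and 2049, 2122 and 1100 in TL3d. Its log2 change was -0.87 ± 0.35 at 3 hours (q = 0.066) and 0.20 ± 0.35 at 3 days (q = 0.72), and the rise from 3 hours to 3 days passed (log2 1.07 ± 0.35, q = 0.037), a call lost without control replicate 2, TL3h replicate 2 or 3 or TL3d replicate 1 or 2 (q = 0.051 to 0.12). JUP overlapped the controls at 3 hours (log2 0.04 ± 0.32, q = 0.92), and PKP1 lay above them at 305.7 to 330.0 CPM against 177.2 to 272.6 without passing (log2 0.55 ± 0.35, q = 0.24). PKP2 was 71.3 to 166.5 CPM in the controls and 34.3 to 53.8 at 3 days, below all controls, with q just above the threshold (log2 -1.49 ± 0.47, q = 0.053).

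**Figure D2:**
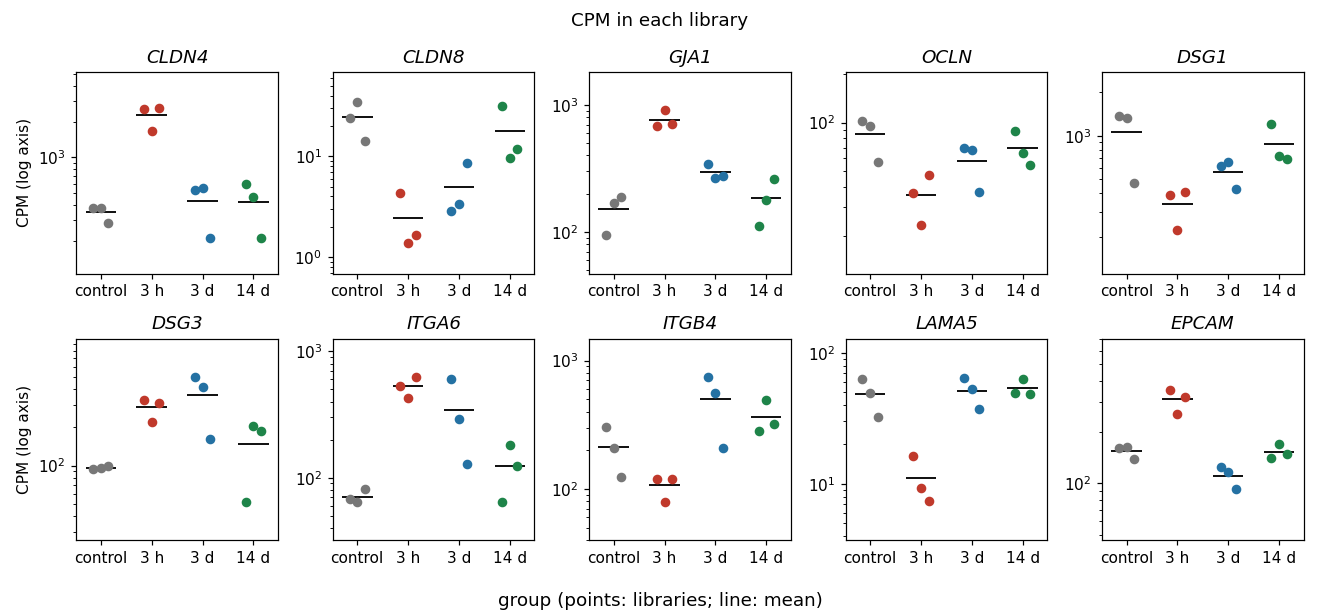
CPM on a log axis for 10 genes in control, 3 h, 3 d and 14 d, with 1 point for each library and a line at the mean of 3. CLDN4 and GJA1 peak at 3 h, OCLN, DSG1, LAMA5 and ITGB4 have their lowest mean there, and DSG3 and ITGA6 stay above the controls in every library at 3 d.

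Among the 12 connexins, 4 rose at 3 hours and none fell, beside 23.2% and 22.2% of all genes. GJA1, the most widely expressed connexin (connexin 43), measured 94.3, 169.0 and 189.0 CPM in the controls, 679.8, 907.2 and 701.7 in TL3h, 343.5, 263.8 and 277.5 in TL3d, and 111.4, 180.2 and 260.1 in TL14d. The TL3h libraries were above all others (log2 2.34 ± 0.34, q = 0.00046), and the TL3d libraries still lay above the controls (log2 0.97 ± 0.33, q = 0.065). GJA5, the arterial endothelial connexin, went from 0.427, 1.88 and 3.50 CPM to 7.11, 19.0 and 13.1 (log2 2.75 ± 0.87, q = 0.026), lost without control replicate 1 or 2 or TL3h replicate 2 or 3 (q = 0.056 to 0.079).

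GJB2 (connexin 26), which is known to be induced in hyperproliferative epidermis, peaked later by its mean. It measured 76.1, 86.9 and 56.0 CPM in the controls, 59.8, 80.3 and 143.6 in TL3h, 207.3, 357.1 and 112.9 in TL3d, and 62.0, 270.3 and 96.9 in TL14d. All TL3d libraries were above the controls without a call (log2 1.63 ± 0.58, q = 0.077).

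GJA5 and CLDN5 are genes of endothelium, and some endothelial markers moved in the same libraries. Of 9 such markers, 2 rose at 3 hours (PECAM1 and CDH5), beside 23.2% of all genes. The summed level was 85.0 to 318.2 CPM in the controls, 648.8 to 1263 in TL3h, 342.7 to 631.3 in TL3d and 114.4 to 349.9 in TL14d, with no marker at 0 in any library. PECAM1 made up most of the TL3h sum (mean 55.8 CPM in the controls and 716.0 in TL3h), and the mean was lower in TL3h than in the controls, with overlap, for KDR (32.8 and 18.6 CPM), TEK (8.09 and 6.36) and EMCN (19.2 and 16.8). Their part in the values of GJA5, CLDN5 and GJA1 was not tested.

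Both integrin chains of the hemidesmosome were measured, and they parted at 3 hours. ITGA6 measured 67.6, 63.9 and 81.0 CPM in the controls, 533.7, 426.7 and 629.7 in TL3h, 604.4, 292.2 and 129.4 in TL3d, and 64.7, 181.9 and 123.6 in TL14d. No TL3h or TL3d library overlapped the controls (log2 2.90 ± 0.53, q = 0.0017, and 2.27 ± 0.52, q = 0.021), and the 3-day call was lost without control or TL3d replicate 1 or 2 (q = 0.059 to 0.074). Its partner ITGB4 measured 305.9, 207.7 and 123.4 CPM in the controls, 120.7, 79.6 and 120.4 in TL3h, 741.7, 561.4 and 207.8 in TL3d, and 281.1, 494.9 and 321.8 in TL14d. TL3h lay just below all controls without passing (log2 -0.99 ± 0.46, q = 0.11), and the difference between TL3d and TL3h passed (log2 2.24 ± 0.48, q = 0.0049).

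**Figure D3:**
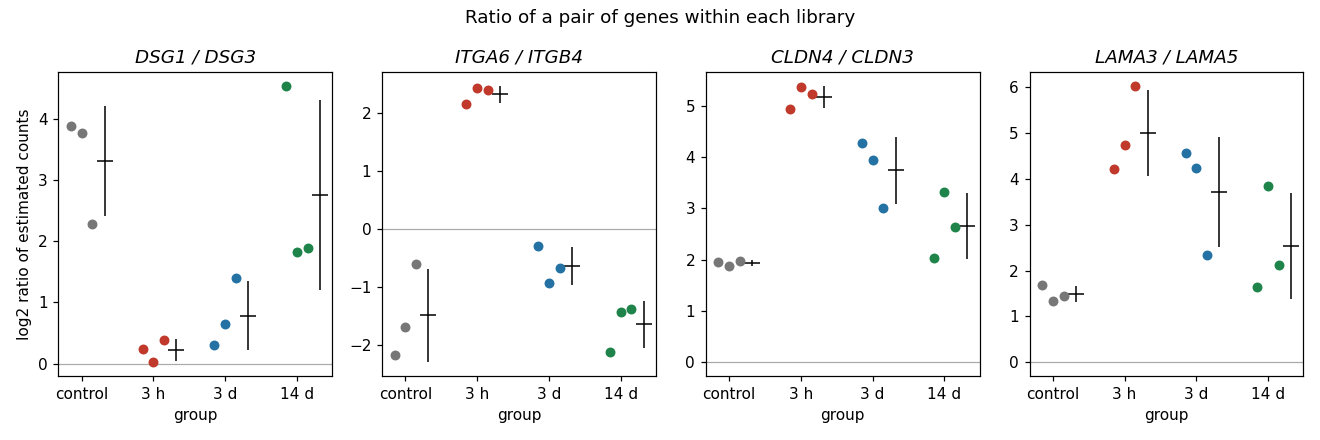
Log2 ratio of the estimated counts of 2 genes of the same family or complex within each library, by group, with 1 point for each library and the mean ± SD of 3 beside the points. ITGA6 is below ITGB4 in all controls (-2.18 to -0.61) and above it in all TL3h libraries (2.15 to 2.42), and DSG1 over DSG3 falls from 2.27 to 3.88 in the controls to 0.02 to 0.39 in TL3h.

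Ratios within a library do not depend on how libraries are scaled. The pairs below were picked after their values were seen, so they are a description. The log2 ratio of ITGA6 to ITGB4 counts was -1.50 ± 0.81 (SD, n = 3) in the controls, 2.32 ± 0.15 in TL3h, -0.64 ± 0.33 in TL3d and -1.65 ± 0.41 in TL14d. DSG1 to DSG3 was 3.31 ± 0.90, 0.22 ± 0.19, 0.78 ± 0.56 and 2.75 ± 1.55 in the same order. CLDN4 to CLDN3 was 1.93 ± 0.05, 5.18 ± 0.21, 3.74 ± 0.65 and 2.67 ± 0.64. LAMA3 to LAMA5, 2 laminin alpha chains, was 1.49 ± 0.17, 4.996 ± 0.94, 3.72 ± 1.202 and 2.54 ± 1.16. In each of these 4 pairs the TL3h libraries did not overlap the controls, and at 14 days the ratio of ITGA6 to ITGB4 lay within the control range in every library.

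Of the 10 laminin chains, LAMA5 fell at 3 hours (beside 22.2% of all genes) and LAMA3 rose at 3 days (beside 10.6%). LAMA5, the alpha chain of mature epithelial basement membranes, measured 62.9, 49.3 and 32.7 CPM in the controls, 16.3, 9.34 and 7.39 in TL3h, 64.5, 53.0 and 37.4 in TL3d, and 49.6, 63.8 and 48.6 in TL14d. TL3h was below every other library of the study (log2 -2.13 ± 0.34, q = 0.00079), and by 3 days the level was back among the controls (log2 0.10 ± 0.33, q = 0.86, and 2.23 ± 0.34 over TL3h, q = 0.00083). LAMA3, the alpha chain of laminin-332, measured 201.6, 124.9 and 89.1 CPM in the controls, 300.9, 250.2 and 486.6 in TL3h, 1530, 1003 and 189.9 in TL3d, and 155.5, 921.3 and 210.6 in TL14d. At 3 hours all libraries were above the controls without a call (log2 1.32 ± 0.80, q = 0.20). The high value at 3 days was that of replicates 1 and 2, and replicate 3 lay within the controls (log2 2.71 ± 0.83, q = 0.049). The call was lost in 9 of the 12 fits that left out 1 library, all except those without TL3d replicate 3 or TL14d replicate 1 or 2 (q = 0.058 to 0.15), and under 6 other settings (q = 0.051 to 0.068).

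The beta chain of the same trimer was highest in the same 3 libraries (TL3d replicates 1 and 2 and TL14d replicate 2). TL14d replicate 2 also had the highest sum of the corneal keratins KRT3 and KRT12 (795.1 CPM, and 84.6 and 232.9 in TL14d replicates 1 and 3). The part of corneal epithelium in the laminin values was not tested. LAMB3 measured 181.5, 144.4 and 83.02 CPM in the controls, 253.9, 277.4 and 278.8 in TL3h, 960.9, 734.8 and 169.7 in TL3d, and 187.8, 863.9 and 233.2 in TL14d (log2 2.19 ± 0.69 at 3 days, q = 0.054, and 1.65 ± 0.68 at 14 days, q = 0.45).

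LAMA2, LAMA4, LAMB1 and LAMC3, chains of muscle, vessel and stromal basement membranes, varied widely among the controls, from 27.2 to 226.3 CPM for LAMA2 and from 44.6 to 213.9 for LAMA4. None passed against control. From 3 hours to 3 days LAMA2 (log2 -3.49 ± 1.02, q = 0.022), LAMC3 (log2 -3.01 ± 0.95, q = 0.031), LAMB2 (log2 -1.25 ± 0.41, q = 0.035) and LAMA1 (log2 -1.88 ± 0.66, q = 0.048) fell, with each call lost when some 1 library was left out. The losses were without TL3h replicate 2 or TL3d replicate 1 or 2 for LAMA2 (q = 0.053 to 0.083), without these or TL3h replicate 1 for LAMC3 (q = 0.058 to 0.11) and LAMB2 (q = 0.093 to 0.12), and in 10 of 12 fits for LAMA1, all except those without control replicate 1 or TL3d replicate 3 (q = 0.054 to 0.16). On library size alone LAMB2 (q = 0.13) and LAMA1 (q = 0.10) were not past the threshold. The summed level of 8 fibroblast markers, led by collagens, was 12310 to 76980 CPM in the controls, 105600 to 126600 in TL3h, 1371 to 64980 in TL3d and 11090 to 57330 in TL14d. None of the 8 passed against control, and DCN and THY1 fell from 3 hours to 3 days. None was at 0 in any library. The part of stroma in the laminin values was not tested.

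Transcripts of LAMA3 changed in their proportions. The gene lies on chromosome 9 of OryCun2.0 (64874314 to 65128315, plus strand), and its 13 annotated transcripts fall into 12 that start between 64874314 and 64876312 and 1 of 5540 bases that starts inside the gene, at 65057735. This split was made after the values were seen. The transcript with the inner start held 73.2, 64.7 and 67.1% of the LAMA3 counts in the controls, 96.02, 96.9 and 96.3% in TL3h, 96.1, 97.5 and 90.0% in TL3d, and 74.9, 97.8 and 81.9% in TL14d. TL3h and TL3d did not overlap the controls. The summed level of the transcripts with the outer start, which was not tested as a sum, was lower without overlap, from 69.6, 56.1 and 37.2 CPM in the controls to 15.4, 10.2 and 23.1 in TL3h, while the inner one went from 190.4, 102.7 and 75.9 to 372.8, 318.0 and 605.7. Of the 8 tested transcripts with the outer start, 2 fell at 3 hours, and the higher level of the inner one did not pass (log2 1.81 ± 0.88, q = 0.16). These CPM come from the transcript table and its own TMM factors, so they do not add up to the gene level above.

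The test of transcript proportions within a gene (diffSpliceDGE) gave q = 1.62e-05 for LAMA3 at 3 hours and q = 0.0255 at 3 days. With the Simes method in place of the F test, q was 0.00056 and 0.038. At 3 days the call was lost without control replicate 1 or 2 or any TL3d library (q = 0.060 to 0.37), and at 3 hours it held without any one library. On simulated counts the F test called more unchanged genes than its threshold allows. Of 5119 genes tested, 5.39% passed at 3 hours and 1.64% at 3 days. Among the 14 genes of this set with at least 2 tested transcripts, only TJP1 passed besides LAMA3, at 3 hours (q = 0.0125). Its call was lost with the Simes method (q = 0.17) and without control replicate 1 or 2 or TL3h replicate 2 (q = 0.10 to 0.13). The 2 tested transcripts of ITGA6, which end differently, kept their proportions within the spread of the libraries (the longer held 76.7 to 78.3% in TL3h and 76.8 to 81.9% in the controls, q = 0.99).

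**Figure D4:**
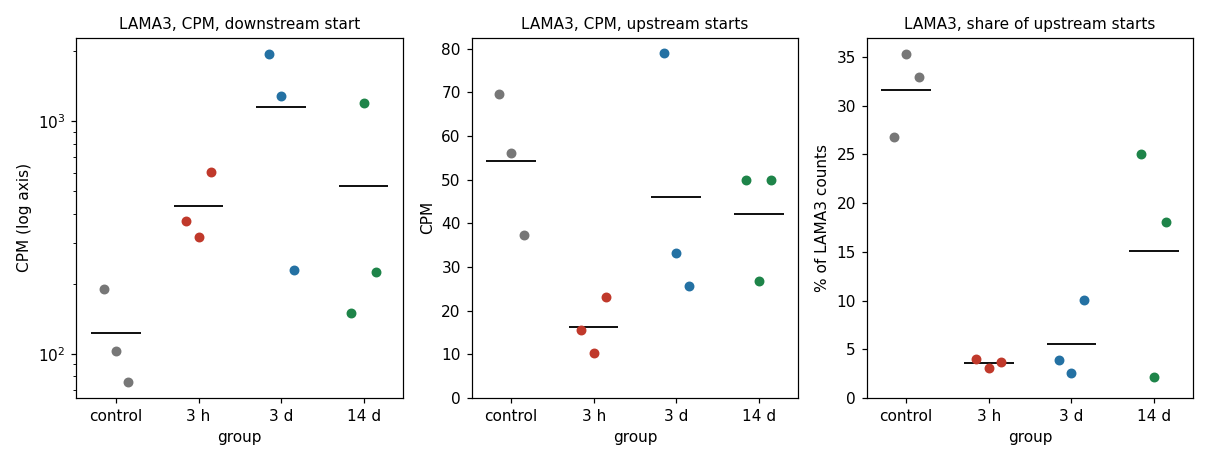
Estimated level of LAMA3 transcripts by start site and group, with 1 point for each library and a line at the mean of 3: CPM of the transcript with the inner start (left, log axis), summed CPM of the 12 transcripts with the outer start (middle) and their share of all LAMA3 counts (right). The share is 26.8 to 35.3% in the controls and 3.11 to 3.98% in TL3h, and the 3 libraries of TL14d spread from 2.18 to 25.1%.

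Taken one by one, 21 transcripts of the 54 genes passed at 3 hours, 1 at 3 days and none at 14 days. Of all 26082 transcripts tested, 28.3%, 5.13% and 0% passed at these times. DESeq2 called 1 transcript of the 54 genes at 14 days, beside 1.84% of all transcripts.

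Some proteins of these structures stand in the table under locus names. Plectin, which links integrin to keratin in the hemidesmosome, is split over 2 rows. The first measured 359.8 to 466.1 CPM in the controls and 563.8 to 882.1 in TL3h (log2 0.88 ± 0.21, q = 0.0061), and the second 58.0 to 81.8 and 99.9 to 142.8 (log2 0.81 ± 0.24, q = 0.021). Both rose without overlap, and neither passed at 3 days (q = 0.072 and 0.38). Dystonin, the other plakin of the hemidesmosome, was 193.4 to 274.1 CPM in the controls and 190.2 to 275.1 in TL3h (log2 -0.13 ± 0.28, q = 0.74). A row annotated as desmoplakin lies inside the span of dystonin on chromosome 12 on the same strand, so its counts cannot be ascribed to DSP. This row did not pass at 3 hours (log2 -0.44 ± 0.34, q = 0.32). From 3 hours to 3 days it rose with overlap (log2 1.12 ± 0.34, q = 0.027). LAMC1 is also spread over 2 rows, of which neither passed (log2 0.39 ± 0.39, q = 0.45, and 0.27 ± 0.40, q = 0.62 at 3 hours).

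Between 3 hours and 3 days, 4 of the 54 genes rose (GJA3, DSP, ITGB4 and LAMA5) and 12 fell (among them EPCAM, LAMA1, LAMA2, LAMB2, LAMC3, CLDN4, CLDN7, CLDN11, CLDN12 and GJA1), beside 18.4% and 19% of all genes. On library size alone 8 rose and 6 fell, beside 34.2% and 8.31% of all genes. Without control replicate 3, TL3d replicate 3 and TL14d replicate 1, 12 rose and 14 fell, beside 20.6% and 21.5% of all genes. The largest of these that held under every alternative run for it was CLDN11 (log2 -5.68 ± 1.29, q = 0.0066), followed by CLDN4, ITGB4, LAMA5, EPCAM (log2 -1.48 ± 0.17, q = 0.00014) and GJA1 (log2 -1.37 ± 0.33, q = 0.0090). GJA3, a connexin of the lens, was low, at 0.110 to 0.332 CPM in TL3h and 0.431 to 1.14 in TL3d (log2 2.08 ± 0.63, q = 0.025), and lost its call without TL3h or TL3d replicate 1 or 3 (q = 0.059 to 0.087). CLDN7 (log2 -1.29 ± 0.33, q = 0.011) and CLDN12 (log2 -0.84 ± 0.14, q = 0.0011) lost their calls on library size alone (q = 0.074 and 0.085) and under no other alternative fit. A further condition of a 2-fold change, not counted among these fits, was not met by CLDN12. Between 3 and 14 days none of the 54 passed by edgeR (0.647% of all genes rose and 1.59% fell), with 7 of the 54 at an unadjusted p under 0.05 (13%, beside 22.6% of all genes). DESeq2 called 2 of the 54, beside 12.5% of all genes, and limma-trend 0.

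**Figure D5:**
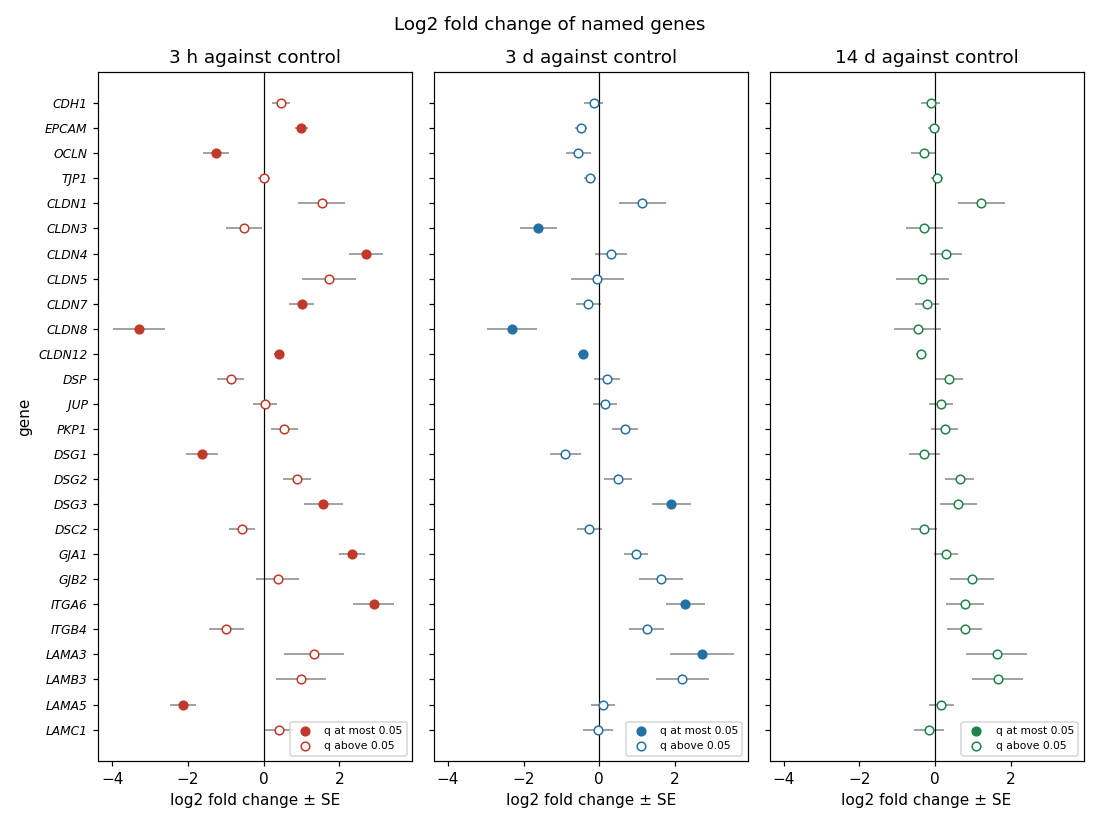
Log2 fold change against control with its SE for 26 of the genes at 3 h, 3 d and 14 d, on the TMM scale, filled where q is at most 0.05. The filled points at 3 h run from CLDN8 (-3.30) to ITGA6 (2.90), those at 3 d from CLDN8 (-2.30) to LAMA3 (2.71), and no point is filled at 14 d. CLDN12 changes sign at 3 h on library size alone.

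Partner genes outside the name rule were read from lists, whose counts stand beside 23.2% of all genes higher and 22.2% lower at 3 hours, and 10.6% and 7% at 3 days. Of 18 measured cytoplasmic and membrane partners of tight junctions, none rose and 7 (38.9%) fell at 3 hours, among them MAGI1 (log2 -2.32 ± 0.34, q = 0.00045), MAGI3 (log2 -1.63 ± 0.24, q = 0.00045), PARD3 (log2 -1.11 ± 0.22, q = 0.0026) and CGN, which encodes cingulin (log2 -2.17 ± 0.47, q = 0.0041). MAGI1, MAGI3 and ILDR1 were also lower at 3 days. Of 11 adherens junction partners, 4 (36.4%) rose at 3 hours, led by LIMA1 (log2 1.15 ± 0.22, q = 0.0022) and CDH3, the P-cadherin of basal cells (log2 2.56 ± 0.57, q = 0.0047), and NECTIN4 fell (log2 -1.75 ± 0.37, q = 0.0037). CDH3 was the one that rose at 3 days (log2 2.81 ± 0.58, q = 0.016). Of 8 desmosome and cornified envelope partners, IVL, the envelope protein involucrin, rose at 3 hours (log2 3.92 ± 0.81, q = 0.0032) and EVPL, envoplakin (log2 -3.19 ± 0.50, q = 0.00066), and KAZN (log2 -1.65 ± 0.37, q = 0.0047) fell. IVL was also higher at 3 days, with overlap (log2 2.84 ± 0.78, q = 0.035). Of 3 tested relatives of connexins, PANX1, a pannexin, rose at 3 hours (log2 1.28 ± 0.38, q = 0.020).

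Of 19 partners in hemidesmosomes and basement membranes, 3 rose at 3 hours (ITGA2, the collagen-binding integrin, with log2 3.07 ± 0.54 and q = 0.0013, ITGB1 and FERMT2) and 3 fell (DAG1, FRAS1 and FERMT1), 15.8% in each direction and so below the shares of all genes. COL7A1, the anchoring fibril collagen, rose at 3 days (log2 1.02 ± 0.26, q = 0.028). Of 14 epithelial transcription and splicing factors, 6 (42.9%) fell at 3 hours (GRHL1, GRHL2, GRHL3, ESRP1, ESRP2 and PAX6) and 2 (14.3%) rose (OVOL1 and KLF4), of which OVOL1 also rose at 3 days (log2 2.14 ± 0.52, q = 0.024). GRHL2, known as a regulator of CLDN4 and CDH1 in other epithelia, fell by 2.49 ± 0.45 on the log2 scale (q = 0.0015) at 3 hours. Its part in the values of CLDN4 and CDH1 was not tested. Of 6 factors of epithelial to mesenchymal transition, 3 (50%) rose at 3 hours, with SNAI2 at log2 2.81 ± 0.31 (q = 0.00011), SNAI1 at 3.60 ± 0.99 (q = 0.013) and ZEB2 at 1.60 ± 0.48 (q = 0.020), and SNAI1 remained higher at 3 days (log2 3.61 ± 0.99, q = 0.035). At 14 days no gene of these lists passed.

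Markers of other cells moved with the time points. All 8 leukocyte markers rose at 3 hours and 5 of 8 at 3 days, with a summed level of 184.2 to 339.0 CPM in the controls, 1453 to 3209 in TL3h, 1096 to 1387 in TL3d and 174.2 to 636.6 in TL14d, and none at 0 in any library. Of 10 measured keratins, KRT17 and KRT18 rose and KRT13 fell at 3 hours (KRT13 with overlap), and the summed level was 14790 and 11820 CPM in control replicates 1 and 2 and lower in replicate 3, where it lay within the range of TL3h, 5231 to 10620 in TL3h, 9366 to 22430 in TL3d and 14640 to 20040 in TL14d. KRT5 and KRT17 rose and KRT15 fell at 3 days. Of 2 listed keratins of corneal epithelium, KRT3 rose (log2 2.24 ± 0.61, q = 0.035). KRT12 did not pass and overlapped the controls (0.677 to 4.68 CPM in the controls and 1.15 to 5.32 in TL3d). None of 7 goblet cell markers, 5 skeletal muscle markers tested and 6 Schwann cell markers passed against control at any time. The summed skeletal muscle level was 476.2 CPM in control replicate 2 and 520.5 in TL3d replicate 3, and at most 14.0 in every other library. The part of these shifts in the junction gene values was not tested.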

How the data were processed

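Per the labels, RNA was extracted with TRIzol and libraries were made with a stranded mRNA kit. According to the submitters' processing notes, reads were aligned by the authors with STAR 2.6.0c to OryCun2.0. For every gene and transcript the deposited files give FPKM beside an estimated count. How reads that fit several places were shared, and whether counting used strand, are not given in the sources used here. Of the count values, 23.4% were fractions, and these were rounded here. Genes passed edgeR's filterByExpr (at least 10 counts), were scaled by TMM and were fitted in 1 model over 12 libraries with the quasi-likelihood test of edgeR 4.0.16 (R 4.3.3), adjusted by Benjamini-Hochberg over all 14835 genes (26082 transcripts), at q of at most 0.05. CPM used TMM-adjusted totals. FPKM were used only for the order of levels in the controls. SE is the fold change over the root of F. DESeq2 1.42.0 and limma 3.58.1 were alternatives.

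The genes, the lists and the alternatives were chosen with earlier results of these data known. Genes were named if they were landmarks of their structure, or among the 8 largest calls in each direction of a comparison without overlap. Partner genes were limited to up to 4 examples with values for each list. The fits were tested on simulated data. Gene names for locus rows came from RefSeq by gene ID (mOryCun1.1), of which no coordinate is used. Sequences of these genes were not used here. Some genes are included in the counts but are not reported here.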

Additional observations from a re-analysis of the deposited data

Results flagged for a closer look

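For 16 of the 54 genes (29.6%, beside 37.3% of all genes) the effect at 3 days differed from the effect at 3 hours, by the edgeR test of TL3d against TL3h, which is the difference of both effects since they share the controls. For 14 of them, the values are the 3-day effect minus the 3-hour effect on the log2 scale. Positive differences were found for ITGB4 (2.24), LAMA5 (2.23), GJA3 (2.08) and DSP (1.07). Negative differences were found for CLDN11 (-5.68), LAMA2 (-3.49), LAMC3 (-3.01), CLDN4 (-2.40), LAMA1 (-1.88), EPCAM (-1.48), GJA1 (-1.37), CLDN7 (-1.29), LAMB2 (-1.25) and CLDN12 (-0.84). On library size alone LAMB2, LAMA1, CLDN12 and CLDN7 were not past the threshold. CLDN12 was past the threshold with opposite signs at 3 hours (0.41) and 3 days (-0.44).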

How the results depend on the processing

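Counts are of the 54 genes past the threshold. DESeq2 called 17 at 3 days, 1 at 14 days, 2 between TL14d and TL3d and 32 with the time points together (beside 30.1%, 2.47%, 12.5% and 63.5% of all genes), and 18 transcripts of these genes at 3 days and 1 at 14 days. Without a filter on low counts 4 genes passed at 3 days (12.1% of all genes). Leaving out control replicate 3, TL3d replicate 3 and TL14d replicate 1 together, chosen after seeing the data, gave 31 at 3 hours, 13 at 3 days, 2 at 14 days, 26 between TL3d and TL3h, 1 between TL14d and TL3d and 35 together (beside 52.6%, 25.9%, 8.17%, 42.1%, 2.4% and 60.9% of all genes). Leaving out 1 library at a time gave 11 to 22 at 3 hours, 0 to 11 at 3 days, 0 at 14 days, 9 to 17 between TL3d and TL3h, 0 between TL14d and TL3d and 11 to 24 together. The share of all genes past the threshold moved too, from 34.9% to 48.1% at 3 hours, 2.37% to 25% at 3 days and 26.1% to 41.2% between TL3d and TL3h, and at 14 days it was 4.74% without TL14d replicate 1 and at most 0.00663% otherwise. It gave 12 to 26 transcripts at 3 hours, 0 to 8 at 3 days and 0 at 14 days, and 1 to 4 genes by transcript proportion at 3 hours and 0 to 2 at 3 days. The Simes method, added after seeing the data, left 1 at 3 hours. Library size alone lowers all 3-hour values by a like amount, so that 10 of the 54 changed sign, of which CLDN12 (-0.10) and TJP1 (-0.50) were past the threshold on one of the scales. With the replicate number as a block, 21 genes passed at 3 hours, 7 at 3 days and 18 between TL3d and TL3h, and 0 transcripts at 3 days (beside 46.8%, 18.3% and 39.3% of all genes and 4% of all transcripts). Of the 7 at 3 days, 5 were higher and 2 lower, and LAMA3 (q = 0.066), DSG3 (q = 0.051), CLDN8 (q = 0.051), CLDN11 (q = 0.051) and CLDN12 (q = 0.065) were no longer past the threshold. ITGA6 (q = 0.036) and CLDN3 (q = 0.043) were, so the other 5 are other genes than before, among them GJA5 (q = 0.029), LAMA2 (q = 0.042), GJA1 (q = 0.049) and LAMB3 (q = 0.0496). Deviations of same-numbered libraries from their group means correlated at -0.153 to 0.517. Libraries of different numbers were not compared in this way, so these values cannot decide whether the numbers pair the samples. No pairing was assumed, since the labels give none. The causes were not tested. With 3 libraries a group, an exact permutation test cannot go below 0.1.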
